A study of Saccharomyces cerevisiae with 15 samples.

Results

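The transcripts described here encode the proteins of the large (60S) subunit of the cytosolic ribosome of Saccharomyces cerevisiae. Members were chosen by name, as all probe sets that the array's annotation pairs with a single yeast gene called RPL followed by a number, with or without the letter A or B, or called RPP0, RPP1A, RPP1B, RPP2A or RPP2B. This gave 82 of 5498 single-gene probe sets and 75 of 5449 genes, 70 of them RPL genes and 5 genes of the P-stalk. Wild-type cells of strain YSBN6 grew in bioreactors on glucose minimal medium with glutamine and proline, and the N-downshift took place when glutamine was exhausted. Total RNA was measured on 15 Affymetrix Yeast 2.0 arrays, and time 0 is the first reading of the medium without detectable glutamine. Each of 3 independent cultures gave arrays for −10, 7 and 24 min, and culture 1 supplied 1 further array for each of −5, 3, 10, 14, 56 and 120 min. Times are those of the labels, and in the study's supplementary list the first sample of each culture was drawn somewhat earlier than its label says, by an amount that differs between the cultures. All groups thus share strain, genotype and starting medium. They differ in time and, with it, in whether glutamine was left in the medium, and the times with 1 array come from culture 1 alone. Every comparison is made with the −10 min state or another time of these cultures rather than with a culture kept on glutamine. At the times with 1 array the test borrows the spread of the times with 3 cultures. It sets that array of culture 1 against the mean of the 3 cultures at −10 or 24 min, not against culture 1 alone.

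A ribosome is assembled from ribosomal RNA and one copy of most ribosomal proteins, whereas the acidic P-proteins form a multimeric stalk. The large subunit holds the peptidyl transferase center, the exit tunnel for the new chain and the stalk that recruits translation factors. In budding yeast most of its proteins are encoded by a pair of genes, copies A and B, left from a genome duplication, and their transcription is promoted by Rap1, Fhl1, Ifh1 and Sfp1 under the control of TORC1. In growing cells these transcripts are among the most abundant of all, and they decrease when nutrients become poor.

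Of the 75 genes, 11 have a single copy, 29 pairs were measured with both copies, and for 6 further pairs the annotation names a single copy (RPL1, RPL7, RPL18, RPL35, RPL41 and RPL42). In 7 genes 2 probe sets were read. The array marks 13 of the 82 probe sets with a suffix for probes shared by several transcripts of a family, and the other 69 carry none. On every array all 82 lay above an intensity of 68.1, taken here as background because 95% of the probe sets designed for another organism lay below it. Intensities are linear and already normalized, and a log2 change is the difference between mean log2 intensities at 2 times. At −10 min the mean intensity ranged from 5624 for RPL15B to 26096 for the shared probe set of RPL2A. The highest value of any probe set on any array, tested or not, was 31675, so that the members started near the upper end of the scale. Intensities of different probe sets are not compared as transcript levels here, and in whole cultures a lower content per cell cannot be told apart from a smaller share of all mRNA.

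Few members were called in the first minutes, and their median changes were small. At −5 and at 3 min no member passed limma's test (adjusted p under 0.05), against 1 member and none with an unadjusted p below 0.05, while 0.0182% and 1.13% of all probe sets were called lower. These shares were not stable, as the count behind the latter (62) was 1 with the culture as a block, without the intensity trend of the test or without culture 3 and 347 without culture 2, and the single probe set at −5 min became 112 without culture 2. At 7 min a single member was lower, RPL22B, and none was higher, with a median log2 change of −0.02 over the 82. At the same time 20.9% of all probe sets were called lower, a count of 1150 that was 673 without culture 1. The count at 7 min was 3 with the culture as a block and 13 without culture 2, whose median change was 0.01 against −0.04 and −0.03 in cultures 1 and 3. Across all tested probe sets 46.9% of the calls at 7 min were higher, and 63.1% after centring each array on its median, with RPL22B the lone member called in either case.

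The decrease became marked between 10 and 24 min. With 1 array of culture 1 set against the −10 min mean of the 3 cultures, 4 members were called lower at 10 min (median −0.07, 25.5% of all probe sets). At 14 min 46 were (median −0.16, 29.4% of all probe sets). The 4 at 10 min were RPL22B (−1.17), RPL18B (−0.25), RPL14B (−0.19) and RPL9B (−0.15), the latter 3 read by unsuffixed probe sets. These early counts varied with the setting. At 10 min they were 1 after median centring, 40 without culture 2 and 1 without culture 3, and at 14 min 17, 78 and 24.

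At 24 min against −10 min all 82 members were lower, against 35.2% of all probe sets tested. The median log2 change was −0.49, and single members ranged from −3.14 for RPL22B to −0.13 for RPL15B. In 8 of the 82 members the decrease exceeded 2-fold, a share near that of all probe sets (509 of 5498). For each of the 82, all 3 arrays at 24 min lay below all 3 at −10 min, which held for 36.2% of all probe sets. Against 7 min, 82 members were lower at 24 min as well (median −0.46), where 29.9% of all probe sets were. RPL15B did not pass against −10 min without culture 3, nor against 7 min without culture 1, which left 81 members in each case. The median over all tested probe sets rose by 0.09 from −10 to 24 min.

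**Figure D1:**
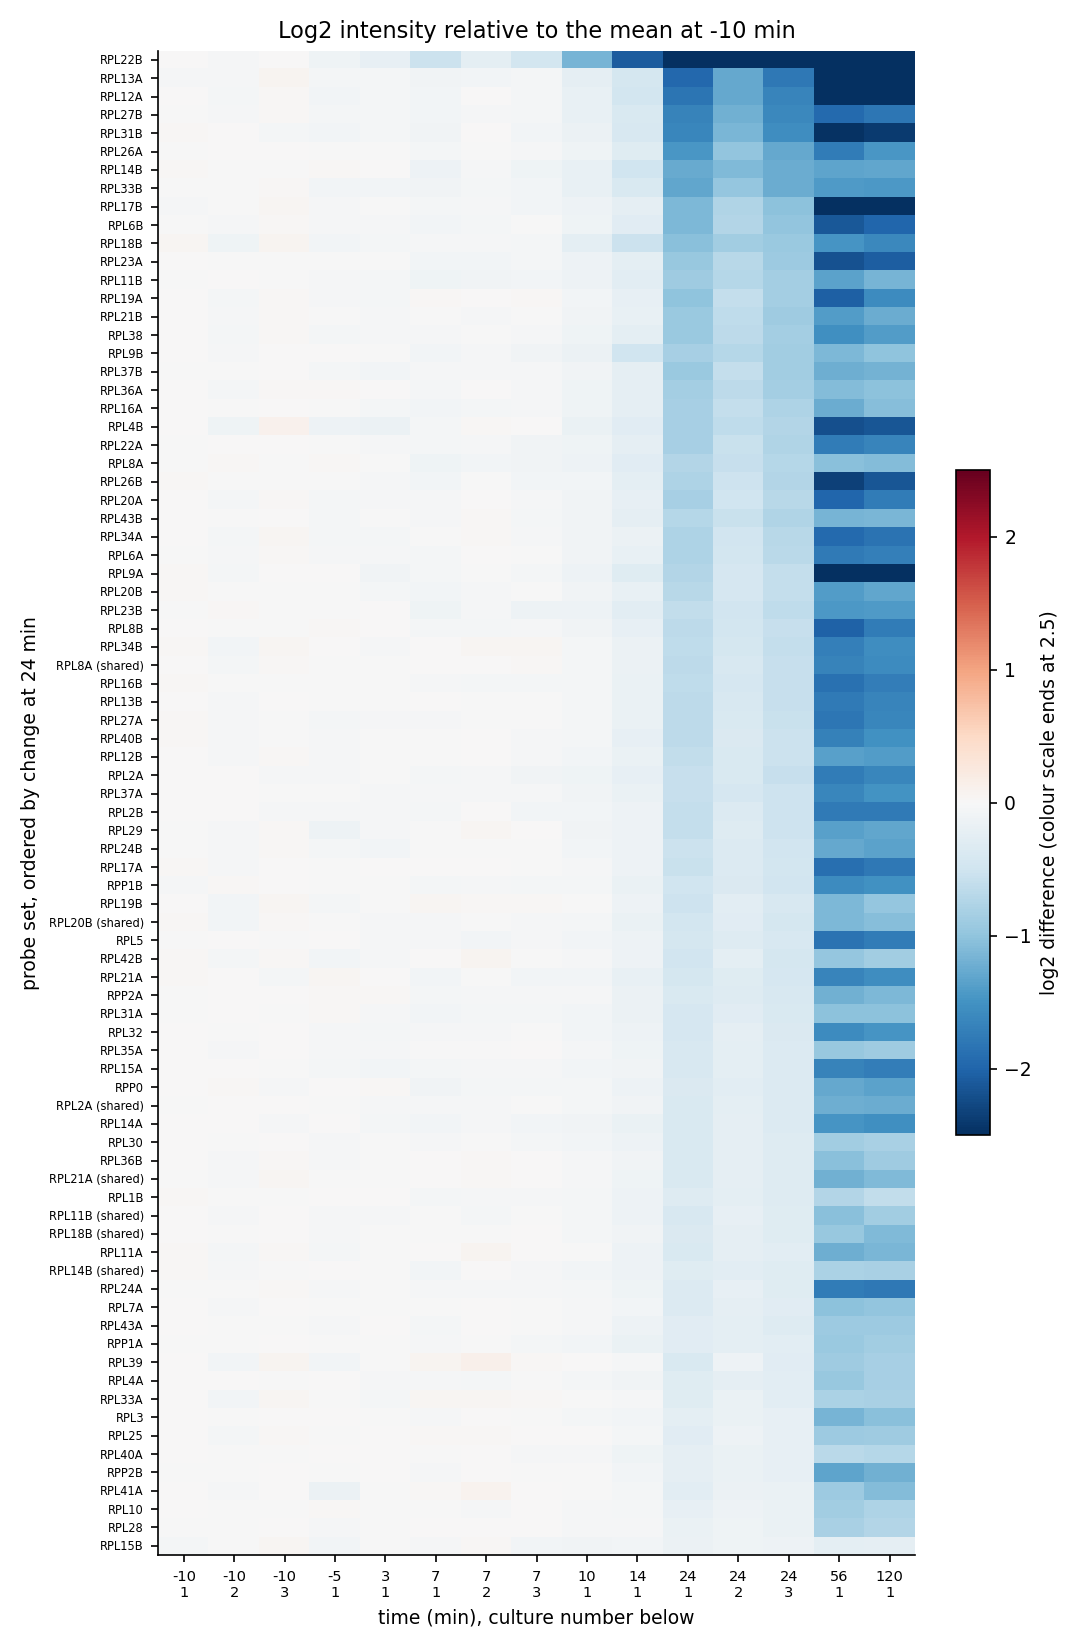
Log2 intensity of the 82 large subunit probe sets (rows, ordered by the change at 24 min) on all 15 arrays (columns, time in min above the culture number), relative to the mean of the 3 arrays at −10 min. The columns up to 7 min are pale except for RPL22B, the columns at 24 min are blue and palest in culture 2, and those at 56 and 120 min are darkest, with the color scale ending at 2.5.

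Culture 2 stood apart at 24 min. Median member changes were −0.59, −0.35 and −0.53 in cultures 1, 2 and 3, and each of the 82 members had its smallest decrease in culture 2. Between cultures 1 and 2 the members differed by a median of 0.18 on the log2 scale at 24 min, against 0.06 between cultures 1 and 3 and 0.08 between cultures 1 and 2 for all probe sets. At −10 min members of these 2 cultures had differed by 0.03. The 60S assembly factors described below gave medians of −3.56, −3.71 and −3.76 in the same 3 cultures, so culture 2 did not have the smallest decrease there at 24 min. At 7 min it did, with assembly factor medians of −0.91, −0.61 and −0.76 in cultures 1, 2 and 3. Without culture 2 the median member change at 24 min was −0.56, with all 82 again lower.

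By 56 min the members had fallen much further. All 82 were lower than at −10 min, with a median log2 change of −1.37 (29.7% of all probe sets), and 65 were down by more than 2-fold. At 120 min all 82 were again lower (median −1.34, 32.9% of all probe sets), 62 of them by more than 2-fold. Relative to 24 min, 79 members were lower at 56 min (median −0.83) and 77 at 120 min (median −0.81), against 12.2% and 21.0% of all probe sets. The first of these shares depended on the scaling, with 1179 probe sets lower at 56 than at 24 min after median centring and 1293 after quantile normalization in place of 670. The 3 not called at 56 min were RPL22B, the unsuffixed probe set of RPL14B and RPL15B, and at 120 min RPL26A and RPL27B joined them. Counted within culture 1, 65 members were down by more than 2-fold at 56 min, against 582 of all 5498 probe sets. At 120 min these counts were 64 and 540. The median of all tested probe sets stood 0.16 above −10 min at 56 min, and relative to it the member median was correspondingly lower.

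The members fell in different time courses. In culture 1 the change at 24 min amounted to between 16.0% and 97.6% of the change at 56 min, with a median of 39.6%. In 10 members it exceeded 70%, namely RPL22B, RPL14B, RPL33B, RPL27B, RPL26A, RPL36A, RPL37B, RPL9B, RPL18B and RPL13A. For RPL14B and RPL18B this held for the unsuffixed probe set, and the shared one reached 39.7% and 37.4%. In 13 it was below 30%, and these included RPP0, RPP2B, RPL3, RPL5, RPL10, RPL28, RPL32, RPL24A, RPL15A and RPL9A. All 10 early members belong to gene pairs, as do all but 11 of the 75 genes. Of the 13 late ones 6 are single-copy genes. These lists were read from 1 culture and not tested.

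RPL22B was the earliest and the most strongly lowered at 24 min. Rpl22 is a protein at the surface of the subunit that yeast can live without, and RPL22B is its less expressed copy in growing cells. Its intensity was 7437, 7252 and 7379 in cultures 1, 2 and 3 at −10 min, 5057, 6249 and 5319 at 7 min and 838, 864 and 807 at 24 min. The 3 times did not overlap, and culture 2 was the highest at 7 min. The log2 change was −0.41 at 7 min (adjusted p = 0.00032) and −3.14 at 24 min (SE 0.07, adjusted p = 9.78e-13, 8.8-fold lower). In culture 1 it fell from 7437 through 6814 (−5 min), 6399 (3 min), 3275 (10 min) and 1743 (14 min) to 793 and 752 in the arrays of 56 and 120 min. Most of its decrease was thus in place at 24 min, and the further change of −0.08 to 56 min did not pass (adjusted p = 0.54).

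RPL9A gave the reverse picture. Rpl9 lies near the base of the stalk and the site where GTPase factors are bound. RPL9A had intensities of 16467, 15562 and 16218 at −10 min and of 9742, 12072 and 10645 at 24 min, a log2 change of −0.58 (SE 0.06, adjusted p = 1.57e-06). At 56 min it stood at 1335 and at 120 min at 1504, both far below any array at 24 min. Its change from 24 to 56 min, −3.01 (SE 0.08, adjusted p = 5.38e-10), was the largest of the 82 and rested on 1 array at 56 min. Copy B took another course, going from 11275, 10873 and 11245 to 6257, 6805 and 6115 at 24 min and then to 5099 (56 min) and 5566 (120 min). RPL9B had thus fallen by 0.80 at 24 min (SE 0.04, adjusted p = 1.14e-09) and by a further 0.32 to 56 min (adjusted p = 0.0005).

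**Figure D2:**
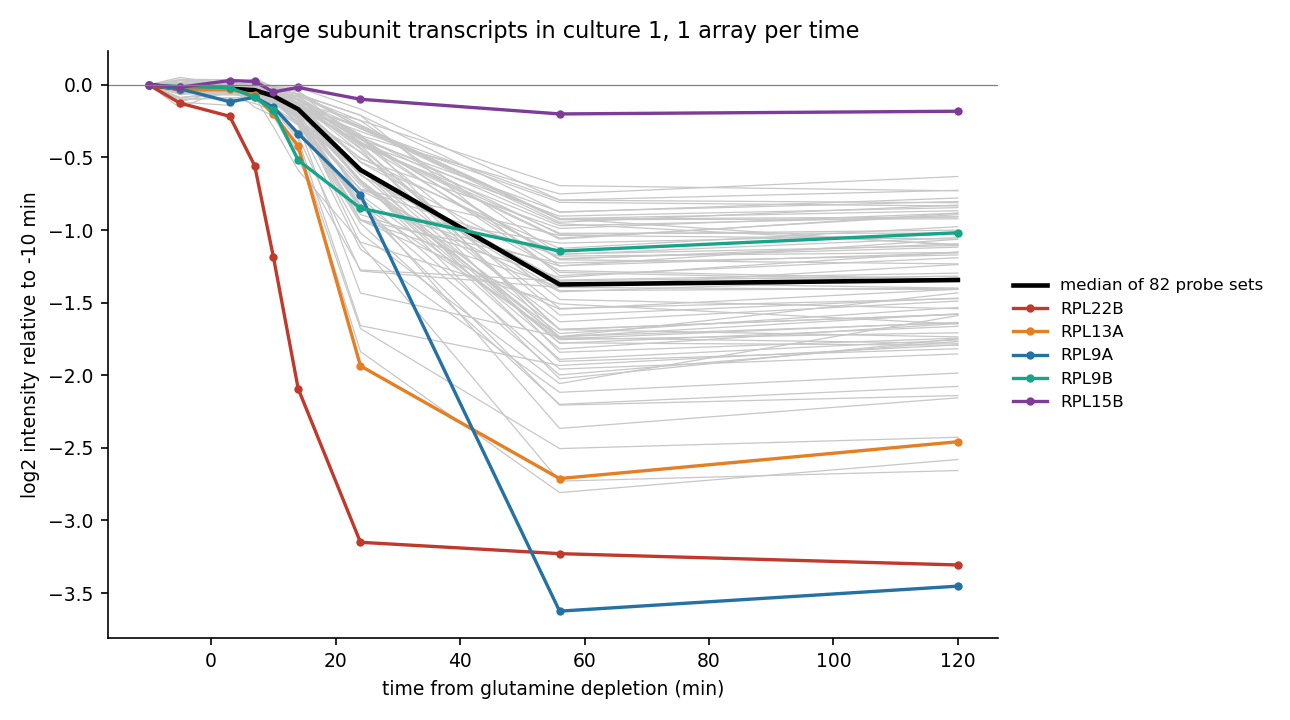
Log2 intensity in culture 1 relative to its −10 min array (vertical axis) against time in min (horizontal axis), for 82 probe sets (grey), their median (black) and 5 named genes. RPL22B reaches most of its fall by 24 min, RPL9A falls mainly between 24 and 56 min, and RPL15B falls by 0.20 to 56 min.

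Genes of the P-stalk decreased little by 24 min and clearly by 56 min. RPP0 anchors the stalk on ribosomal RNA, and pairs of P1 and P2 proteins bind to it and recruit elongation factors. RPP0 had intensities of 23084, 23348 and 22359 at −10 min and of 17808, 19093 and 18028 at 24 min, a log2 change of −0.33 (SE 0.03, adjusted p = 4.32e-07). The groups did not overlap, and culture 2 was the highest at both times. RPP1B, which encodes a P1 protein, went from 20060, 20802 and 20675 to 14515, 15864 and 14717 (−0.45, SE 0.03, adjusted p = 5.16e-08). RPP1A, the other P1 gene, went from 18050, 18072 and 18255 to 14826, 15318 and 15008 (−0.27, SE 0.02, adjusted p = 2.46e-07). P2 genes showed the same separation of the groups. RPP2A went from 19676, 19814 and 19803 to 15250, 15854 and 14888 (−0.37, SE 0.03, adjusted p = 3.76e-08). RPP2B went from 20990, 20973 and 21340 to 18145, 18928 and 18336 (−0.19, SE 0.02, adjusted p = 7.41e-06). From 24 to 56 min the same 5 genes fell by 0.96 (RPP0), 0.66 (RPP1A), 1.12 (RPP1B), 0.84 (RPP2A) and 1.13 (RPP2B), each past the threshold. RPP2B had the smallest of the 5 changes at 24 min and RPP1A the smallest afterwards.

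Rpl5 and Rpl11 join 5S ribosomal RNA to form a particle that is built into the subunit as a unit. RPL5 had intensities of 23103, 23319 and 23038 at −10 min and of 17009, 18641 and 17445 at 24 min, without overlap. Its log2 change was −0.39 (SE 0.03, adjusted p = 1.43e-07) at 24 min and −1.46 from 24 to 56 min (adjusted p = 8.1e-10), where it stood at 6445. RPL11A, read by an unsuffixed probe set, had 15191, 14356 and 15320 at −10 min and 11489, 12807 and 12425 at 24 min, a change of −0.29 (SE 0.04, adjusted p = 2.18e-05). From 24 to 56 min RPL11A changed by −0.93. The unsuffixed probe set of RPL11B changed by −0.82 at 24 min, so that RPL5 lay between the RPL11 copies at that time.

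Among the single-copy genes the decrease at 24 min was largest for RPL38, RPL29, RPL5, RPL32 and RPP0. RPL38, a small protein of the subunit's surface, went from 16448, 15942 and 16843 to 8619, 10463 and 9140 (−0.81, SE 0.05, adjusted p = 3.1e-08). RPL29, whose product is not essential in yeast, went from 20010, 19616 and 20593 to 13256, 15944 and 14007 (−0.48, SE 0.05, adjusted p = 2.79e-06). RPL32 went from 22430, 22155 and 22528 to 16621, 19273 and 17330 (−0.34, SE 0.04, adjusted p = 1.01e-05). In these 3 genes culture 2 was again the highest at 24 min, and no array at 24 min reached the level at −10 min. RPL30, whose protein binds its own transcript and represses its splicing, changed by −0.31 (adjusted p = 2e-06).

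The smallest decreases among single-copy genes were those of RPL28, RPL10, RPL25, RPL3 and RPL39. Rpl10 joins the subunit in the cytoplasm as one of the last proteins, and its gene went from 23804, 23448 and 23613 to 20584, 21655 and 21050 (−0.16, SE 0.02, adjusted p = 3.51e-05). RPL28, known for mutations that give resistance to cycloheximide, went from 22964, 23002 and 23288 to 20448, 21471 and 20672 (−0.15, SE 0.02, adjusted p = 7.53e-05). Rpl3 reaches to the peptidyl transferase center, and RPL3 went from 21037, 20679 and 21008 to 17727, 18563 and 18017 (−0.21, SE 0.02, adjusted p = 5.04e-06). These shifts were small, yet the arrays of both times did not overlap in any of the 3 genes. Rpl25 and Rpl39 belong to the tunnel exit, where factors meet the growing chain. RPL25 went from 22994, 22122 and 23214 to 18810, 20738 and 19698 (−0.21, SE 0.03, adjusted p = 8.88e-05). RPL39 went from 17518, 16431 and 18062 to 13276, 15880 and 14167 (−0.27, SE 0.06, adjusted p = 0.000873), with the smallest change in culture 2. All 5 fell further to 56 min, by 0.62 (RPL39) to 0.95 (RPL3).

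Copies of a pair did not decrease by equal amounts. For each pair the log2 intensity of copy B was subtracted from that of copy A on each array, each gene being read by its brightest probe set, and the change of this difference was tested over all 52 pairs of the table. At 24 min against −10 min the difference had changed in 27 of 29 large subunit pairs. Copy A fell more in 12 and copy B in 15, and the median size of the difference was 0.32. In all 29 pairs the sign was the same in all 3 cultures, also in RPL11 and RPL14, which did not pass. The same held for every other pair of the table except RPS22 and RPS10. The 52 pairs are the 29 of the large subunit, 21 of the small subunit and 2 others. Of the 52, 92.3% were called, so the count for the large subunit lies near a background that is itself made of ribosomal protein genes almost throughout. At 7 min 1 of 29 pairs passed, RPL22 (5.77% of all pairs), and it no longer did without culture 1 or without culture 3. At 24 against 7 min 26 of 29 passed (92.3% of all pairs), and at 120 against 24 min 27 did (84.6% of all pairs), with copy A falling more in 15 and copy B in 12.

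**Figure D3:**
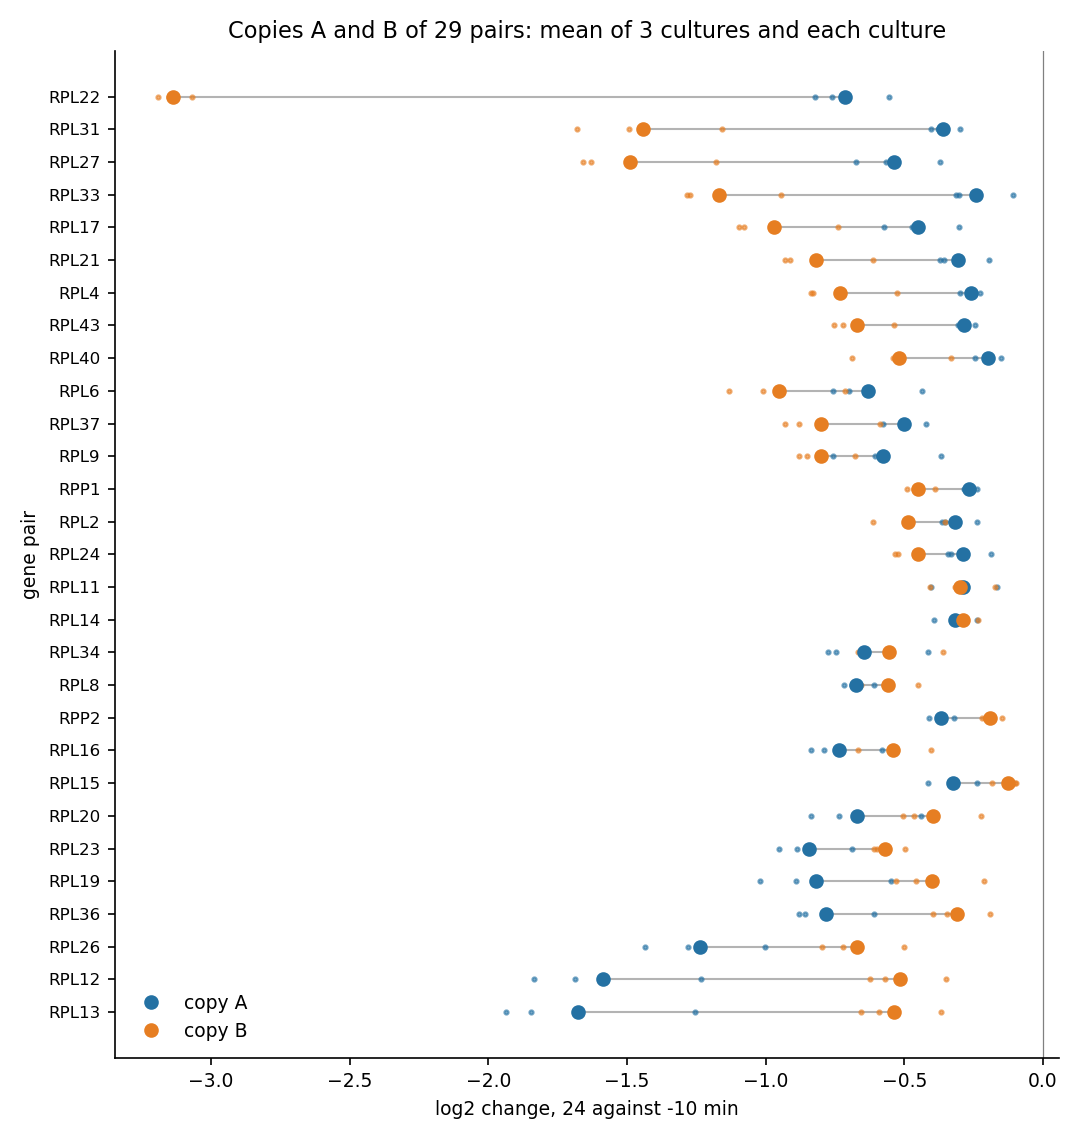
Log2 change from −10 to 24 min (horizontal axis) of copy A (blue) and copy B (orange) of 29 large subunit pairs (rows, ordered by the difference). Large points are means of 3 cultures and small points single cultures, and the copies of RPL22, RPL31, RPL27, RPL33, RPL26, RPL12 and RPL13 lie farthest apart.

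The RPL22 copies differed most. RPL22A had intensities of 19858, 20095 and 20051 at −10 min and of 11229, 13665 and 11833 at 24 min, a change of −0.71 (SE 0.05, adjusted p = 9.85e-08) against −3.14 for RPL22B. The difference between the changes was 2.42 (95% interval 2.26 to 2.59, adjusted p = 1.35e-09). After 24 min the order was the reverse, as RPL22A changed by −0.94 to 120 min and RPL22B by −0.15 (adjusted p of the difference = 6.57e-05).

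In RPL13 and RPL12 copy A fell more. RPL13A went from 14316, 14229 and 15174 to 3742, 5968 and 4221 and RPL13B from 18829, 18326 and 18908 to 11952, 14210 and 12538. Their changes of −1.68 and −0.54 differed by −1.14 (SE 0.09, adjusted p = 7.8e-07). Rpl12 sits at the stalk base beside P0. RPL12A went from 14568, 13962 and 14799 to 4077, 5942 and 4591 and RPL12B from 18792, 18185 and 19042 to 12201, 14269 and 12832. Their changes of −1.59 and −0.51 differed by −1.07 (SE 0.07, adjusted p = 1.52e-07). RPL12A was the highest in culture 2 at 24 min, as was RPL13A, and both copies of each pair kept their groups apart. To 120 min the RPL12 copies fell by 0.98 (A) and 0.88 (B), a difference of −0.10 that did not pass (adjusted p = 0.306).

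In RPL31, RPL27, RPL33 and RPL17 copy B fell more. Rpl31 and Rpl17 are proteins around the tunnel exit. RPL31B went from 15080, 14787 and 14186 to 4709, 6622 and 5034, whereas RPL31A went from 19392, 19684 and 19377 to 14646, 15998 and 14891. The changes of −1.44 and −0.36 differed by 1.08 (SE 0.08, adjusted p = 5.47e-07). RPL27B went from 15265, 15099 and 15633 to 4835, 6672 and 5047, and RPL27A from 17748, 17263 and 17495 to 11131, 13356 and 11823. The difference was 0.95 (SE 0.05, adjusted p = 6.72e-08), with each copy lower in all 3 cultures. RPL33B went from 16717, 16674 and 17317 to 6873, 8659 and 7165, and RPL33A from 20935, 19934 and 21532 to 16968, 18491 and 17346. The difference was 0.93 (SE 0.05, adjusted p = 6.59e-08), and RPL33A was among the least changed of the paired genes. RPL17B went from 16002, 16210 and 16965 to 7489, 9711 and 8025, and RPL17A from 20629, 19854 and 20345 to 13848, 16087 and 14651. The difference was 0.52 (SE 0.04, adjusted p = 1.58e-06).

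RPL26 showed early and late decreases side by side in 1 pair. RPL26A went from 15742, 16098 and 15970 to 5825, 8045 and 6575 at 24 min and stood at 4729 at 56 min and 5833 at 120 min. RPL26B went from 14652, 14230 and 14376 to 8437, 10066 and 8725 and then to 2842 and 3288. Copy A had thus fallen more at 24 min (difference −0.57, SE 0.05, adjusted p = 1.58e-06). Copy B fell more afterwards. Its 120 min array lay 1.46 below the 24 min mean of the 3 cultures, against 0.21 for copy A. Within culture 1 copy A did not fall from 24 to 120 min (5825 and 5833), whereas copy B went from 8437 to 3288.

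Several other pairs separated mainly after 24 min. The RPL9 copies differed by 0.22 at 24 min, with copy B lower, and by −2.64 in their change from 24 to 120 min (adjusted p = 2.86e-10), the largest such value among the 29 pairs. Rpl15 is among the proteins that bind early to ribosomal RNA. RPL15B was the least changed of all members, going from 5453, 5612 and 5808 to 5090, 5247 and 5116 at 24 min (−0.13, SE 0.03, adjusted p = 0.00462) and to 4746 at 56 min. The 24 min change of RPL15B was −0.10 without culture 3 and then did not pass (adjusted p = 0.077). RPL15A went from 17775, 17738 and 17594 to 13337, 15045 and 14043 (−0.33, SE 0.04, adjusted p = 3.57e-06), and to 5526 at 56 min. The RPL15 copies differed by −0.20 at 24 min (adjusted p = 0.00123), which did not pass after quantile normalization (−0.05, adjusted p = 0.322), and by −1.30 from 24 to 120 min (adjusted p = 2.42e-08). RPL16, RPL4 and RPL8 differed after 24 min in the other direction, with copy B falling more by 0.87 (RPL16), 0.85 (RPL4) and 0.78 (RPL8). RPL4A was read by a shared probe set alone and RPL4B by an unsuffixed one. The RPL8 value was 0.15 with the dimmer, shared probe set of RPL8A (adjusted p = 0.00522).

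With the brightest probe set of each gene, the closest pairs at 24 min were RPL11, RPL14, RPL34 and RPL8. RPL34A went from 15840, 15185 and 16365 to 9244, 11394 and 9749, and RPL34B from 17224, 16008 and 17434 to 10846, 12468 and 11185. The difference of −0.09 (adjusted p = 0.0227) was lost without culture 1 (−0.08, adjusted p = 0.136) and without culture 3 (−0.08, adjusted p = 0.164). RPL8A went from 19232, 19833 and 19212 to 11696, 12990 and 11907, and RPL8B from 19674, 19579 and 19537 to 12481, 14321 and 13146. The difference of −0.11 (adjusted p = 0.00238) became 0.02 with the dimmer, shared probe set of RPL8A (adjusted p = 0.591). RPL11 and RPL14 did not pass, with differences of 0.01 (95% interval −0.06 to 0.08, adjusted p = 0.796) and −0.03 (−0.11 to 0.05, adjusted p = 0.461).

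Both of these last values rest on shared probe sets. The brighter probe set of RPL11B and of RPL14B carries the suffix for shared probes, so that part of its signal can come from the other copy. With unsuffixed probe sets, RPL14B went from 12174, 11873 and 11865 to 5032, 5537 and 5091 (−1.20, SE 0.04, adjusted p = 3.83e-11), while RPL14A went from 18098, 18192 and 17707 to 13789, 15410 and 14210 (−0.32, SE 0.04, adjusted p = 3.89e-06). The pair then differed by 0.88 (adjusted p = 2.16e-09). RPL11B went from 19808, 19995 and 19834 to 10665, 12124 and 10987 (−0.82, SE 0.04, adjusted p = 9.91e-10), and the RPL11 pair differed by 0.53 (adjusted p = 4.95e-07). In both pairs copy B was then the one that fell more. RPL2 was the closest pair with unsuffixed probe sets, at −0.02 (adjusted p = 0.454) in place of 0.17 (adjusted p = 0.00135), and the difference of RPL20 went from −0.27 to −0.10 (adjusted p = 0.0084).

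The 7 genes with a pair of probe sets all had a larger decrease at 24 min on the unsuffixed one. For RPL18B the changes were −0.95 (unsuffixed) and −0.29 (shared), for RPL20B −0.57 and −0.40, for RPL2A −0.51 and −0.32, for RPL21A −0.38 and −0.31 and for RPL8A −0.67 and −0.54. At 56 min RPL8A was an exception, with −1.05 on the unsuffixed and −1.67 on the shared probe set. Over the 69 unsuffixed probe sets the median change was −0.54 at 24 min and −1.47 at 56 min. In these 7 genes the shared probe sets thus gave the smaller decreases at 24 min, and the decreases of RPL1B, RPL4A, RPL7A, RPL35A, RPL41A and RPL42B, read by shared probe sets alone, stand with this limit.

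The size of the decrease also went with the starting intensity. The dimmer 41 members had a median change of −0.63 at 24 min and the brighter 41 one of −0.33, and at 56 min −1.71 and −1.20. Across the 82 probe sets Pearson's r between log2 intensity at −10 min and the change at 24 min was 0.55 and Spearman's rho 0.63, over points that share the same arrays and, in paralogs, related sequences. RPL15B, the dimmest, was also the least changed and so departed from this trend. The part of a compressed response of bright probe sets in the decreases was not tested.

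**Figure D4:**
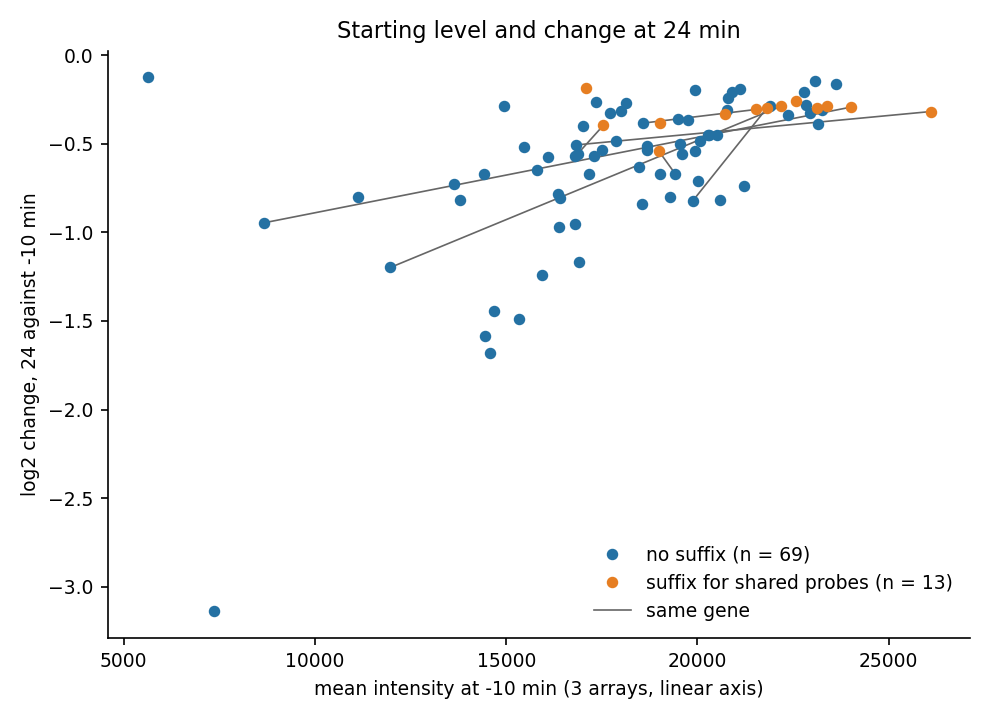
Log2 change from −10 to 24 min (vertical axis) against mean intensity at −10 min (horizontal axis, linear) for 69 probe sets without and 13 with a suffix for shared probes; lines join the probe sets of 1 gene. Bright probe sets lie nearer to 0, shared ones among them, and RPL15B (top left) and RPL22B (bottom left) stand apart.

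Transcripts of the small subunit gave similar medians. Of 65 RPS probe sets, 1 was lower at 7 min and 65 at 24 min, against 20.9% and 35.2% of all probe sets. Their median was −0.43 at 24 min, −1.48 at 56 min and −1.40 at 120 min, beside −0.49, −1.37 and −1.34 for the large subunit. In cultures 1, 2 and 3 the RPS medians at 24 min were −0.51, −0.31 and −0.46, so that culture 2 had the smallest value here as well. No test of a difference between the subunits was made.

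Factors that build and export the large subunit were lowered earlier and more strongly. Of 61 such transcripts 60 were lower at 7 min (median −0.75) and 61 at 24 min (median −3.67), against 20.9% and 35.2% of all probe sets. The largest decreases were those of the helicase genes DBP3 (−5.48) and DRS1 (at least 39.0-fold, with 1 of 3 arrays at 24 min below background), of NOG1 (−5.26), which encodes a GTPase, and of NOC2 (−5.16), whose product acts in the transport of precursors. They partly recovered thereafter, with 53 higher and 2 lower at 56 than at 24 min (median 0.88), against 32.6% of all probe sets higher, and 42 higher after quantile normalization. In the same interval 79 of 82 members were lower. At 120 min the members' median was −1.34 and that of the assembly factors −2.20 relative to −10 min.

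**Figure D5:**
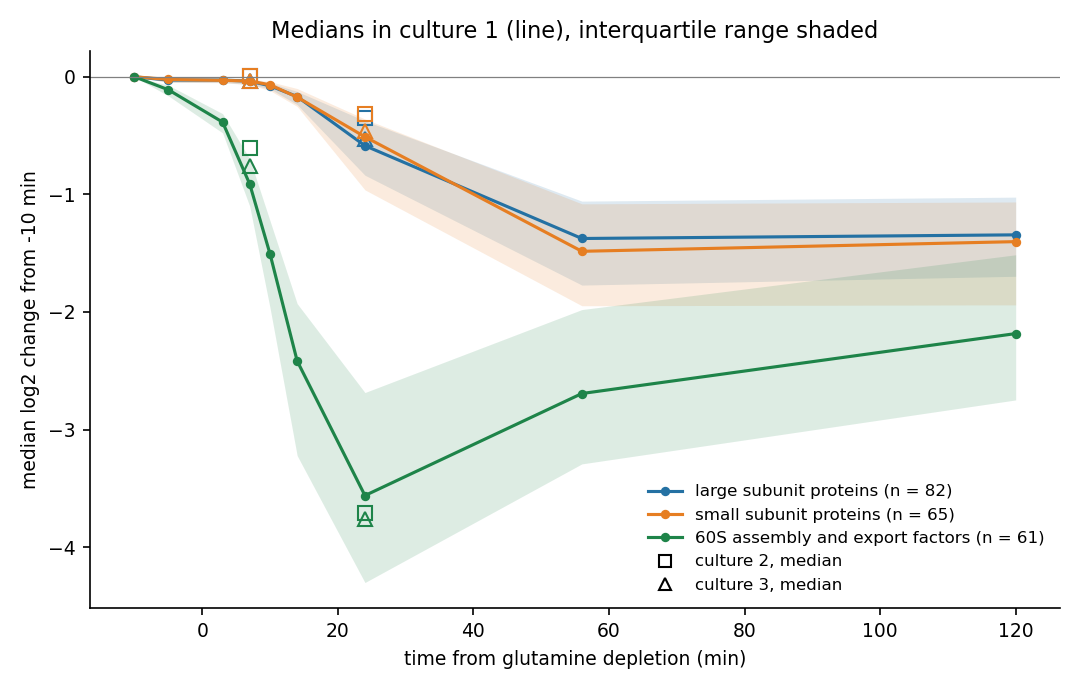
Median log2 change from −10 min (vertical axis) against time in min (horizontal axis) for 82 large subunit, 65 small subunit and 61 assembly and export probe sets in culture 1 (lines, interquartile range shaded), with medians of cultures 2 and 3 as open symbols. The assembly factors reach −3.56 at 24 min in culture 1 and then rise, while both subunits fall to 56 min.

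Proteins that stand in for or escort large subunit proteins gave values like those of the assembly factors. All 3 placeholder genes, RLP24 (−5.00), MRT4 (−4.53) and RLP7 (−3.91), which are related to Rpl24, P0 and Rpl7 and hold their places in precursors, were lower at 24 min. RPL24A itself changed by −0.29, RPL24B by −0.45, RPP0 by −0.33 and RPL7A, read by a shared probe set alone, by −0.28 at that time. All 7 genes for chaperones and dedicated partners were lower as well (median −3.55), among them SYO1 (at least 45.4-fold lower), which serves Rpl5 and Rpl11, PUF6 (−5.27), RRB1 (−4.53), which serves Rpl3, and ACL4 (−3.55), which serves Rpl4. SYO1 was below background on 2 of the 3 arrays at 24 min, and for such a bound each array below background was set to that level. Of 5 lysine methyltransferase genes for large subunit proteins 3 were lower and 2 higher at 24 min, from −1.01 for RKM3 to 0.54 for RKM5. At that time 35.2% of all probe sets were lower and 46.9% higher.

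Of 11 listed regulators of ribosomal protein or ribosome biogenesis genes 6 were lower and 3 higher at 24 min, where 35.2% of all probe sets were lower and 46.9% higher. IFH1, a coactivator that binds Fhl1, fell by 1.54 (adjusted p = 9.5e-10), and CRF1, a corepressor that competes with it, rose by 1.06 (adjusted p = 1.96e-07). STB3, which encodes a repressor bound to ribosome biogenesis promoters, rose by 0.48. TOD6, a repressor of ribosome biogenesis genes, fell from a mean of 918 to 40.3, below the background level on all 3 arrays, a decrease of at least 13.5-fold (adjusted p = 1.45e-10). RAP1 (−0.35), FHL1 (−0.30), SFP1 (−0.26) and ABF1 (−0.20) decreased slightly, HMO1 rose by 0.19, and DOT6 and SCH9 did not pass (−0.08 and 0.09, adjusted p = 0.0503 and 0.0622).

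Several members lie beside another ribosomal protein gene, as the gene order of the RefSeq annotation of S. cerevisiae shows. RPL24A and RPL30 are transcribed away from each other and changed alike at 24 min (−0.29 and −0.31), yet from 24 to 56 min by −1.46 and −0.56. RPS16B and RPL13A, also divergent, changed by −0.86 and −1.68 at 24 min, and their paralogs in the matching arrangement, RPL13B and RPS16A, by −0.54 and −0.30. RPL13A and RPP1A converge and changed by −1.68 and −0.27. RPS22A and RPL39 changed by −0.80 and −0.27 and RPS15 and RPP2A by −0.41 and −0.37, both divergent. Neighbors thus had like values in some cases and different values in others, and differences between neighbors were not tested.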

How the data were processed

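Samples were 15 arrays of the N-downshift. Per the labels and the methods, the authors made the deposited linear intensity values with RMA background correction, perfect-match probes, QSPLINE normalization of the 15 arrays and Li-Wong summarization, and R 2.10.0, affy and RMA appear in the submitters' processing notes. The number of arrays limits precision. Here log2 intensities, with no pseudocount, entered a limma 3.58.1 model (R 4.3.3) with 1 mean per time, an intensity trend in eBayes and 6 residual degrees of freedom. Benjamini-Hochberg adjustment covered the 5498 probe sets of a comparison, and 0.05 was the threshold. Normalization over all arrays sets changes relative to other transcripts.

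Paralog pairs were formed from symbols that differ in the final A or B and tested without a trend, adjusted over 52 pairs. Pairing by protein sequence and promoter sequences were not used here, and gene coordinates were used for order alone. Scripts were tested on simulated data.

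Members, lists and tests were chosen with earlier results of these data known. Named in full are the 5 single-copy genes with the largest and the 5 with the smallest decreases at 24 min, members called at 7 min, the P-stalk genes, the 8 pairs that differed most and the 4 that differed least at 24 min, and up to 4 genes per further list. RPL2, RPL9, RPL15, RPL16, RPL20, RPL4, RPL11A and the unsuffixed probe sets of RPL11B and RPL14B, RPL18B, RPL30 and neighboring genes were added after their values were seen.

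The labels give 1 experiment per replicate number, that is 1 culture, so the numbers pair samples. Deviations from the mean of a time correlated by −0.271 to 0.189 within a culture. Alternatives were quantile normalization, centring on the median, an offset of 50 before log2, the culture as a block, a filter on dim probe sets, no trend, no suffixed probe sets, the 9 arrays of replicated times, the dimmer probe set of a gene and leaving out each culture.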

Additional observations from a re-analysis of the deposited data

How the results depend on the processing

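Calls at 24, 56 and 120 min against −10 min held for every measured member under each alternative run, except RPL15B at 24 min without culture 3, with medians at 24 min from −0.56 to −0.44. Early counts did not hold. With the culture as a block, 3 members were lower at 7 min (1 in the fit without it), and the block moved no other count of members or pairs by more than 1.5 times, while over all probe sets the 62 lower at 3 min became 1. After median centring, 1 member was lower at 10 min and 17 at 14 min, and the median change from 24 to 56 min was −0.92, as after quantile normalization (−0.92). Without suffixed probe sets the medians were −1.47 at 56 min, −1.45 at 120 min and −0.93 from 24 to 56 min. Leaving out 1 culture gave counts of lower members from 0 to 2 at −5 and at 3 min, 1 to 13 at 7 min, 1 to 40 at 10 min and 24 to 78 at 14 min, and 0 to 1 pairs at 7 min, the highest member counts being those without culture 2. Among pairs, the sign of the difference at 24 min turned for RPL8 with the dimmer probe set (0.016), for RPL14 with the dimmer or with unsuffixed probe sets alone (0.88 in both), and for RPL2 in both settings (−0.022, adjusted p = 0.470 and 0.454). The sign also turned for RPL11 after quantile normalization (−0.054, adjusted p = 0.143), where neither fit passed. The setting with unsuffixed probe sets alone was chosen after seeing the data. Calls over all probe sets were higher in 72.8% of cases from 24 to 56 min (53.3% after median centring, 52.3% after quantile normalization), 59.0% from 24 to 120 min (47.0% after the latter), 50.1% at 10 min (61.7% after centring) and 69.5% at 3 min (57.2% after quantile normalization). The cause of these shifts was not tested, apart from the probe sets that define them. Of 735 settings of single members and pairs, 724 were counted as leaving the call and its direction in place. For pairs, a turn of sign counted as unchanged where neither fit passed, as for RPL11 after quantile normalization. Pairs by symbol alone were the main choice, so that alternative was not run. A lone array per time from culture 1, bright starting levels and shared probes limit the late changes and the copies.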
